A study of Mus musculus with 10 samples.

Results

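Base excision repair genes were examined in mouse blood progenitor cells that carried the leukaemia fusion protein AML1/ETO. The 10 genes were Ogg1, Mutyh, Neil1, Neil3, Ung, Apex1, Polb, Lig3, Xrcc1 and Parp1, chosen by name for their known place in the pathway, out of 18193 genes tested. Each gene was read from the probe set (a group of short probes for one transcript) with the highest mean over all 10 arrays, and its other probe sets served as a check. All 10 genes were measured, on 24 probe sets.

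Marrow came from C57BL/6 mice aged 5 to 6 weeks. It was depleted of lineage-positive cells, selected for Sca1 and grown in IL-3, IL-6 and SCF. The cells received the MigR1 retrovirus with its green fluorescent marker alone (GFP, 3 arrays), with AML1/ETO (3 arrays) or with AML1/ETO carrying the W692A substitution (W692A, 4 arrays). All 3 groups were therefore cultured, transduced and sorted alike, as live cells with GFP, Sca1 and cKit but no lineage markers, 48 hours after a second transduction. The fusion was expressed from the virus and not from a translocation, in short culture and not in a leukaemia. W692A lies in the MYND domain, the part of ETO that binds the corepressors SMRT and N-CoR. Each sample was 25000 cells from an independent transduction. The labels do not say whether these drew on different mice, so the p-values measure the spread between these transductions.

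Base excision repair removes single damaged bases. A glycosylase cuts the base from its sugar, the endonuclease encoded by Apex1 nicks the strand at the empty site, a polymerase fills the gap and a ligase seals it. In the short-patch route, a single base is replaced by DNA polymerase beta (Polb) and sealed by ligase 3 (Lig3) on the scaffold protein Xrcc1. The long-patch route borrows replication enzymes instead. Parp1 binds the nick and recruits Xrcc1. Ogg1, the glycosylase for 8-oxoguanine, an oxidised guanine, has been reported as lowered by AML1/ETO in human leukaemia studies.

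The promoter sequences of 9 of the 10 genes were found in the RefSeq table of assembly GRCm38.p6, and that of Polb was not. The 250 bases before the start site are printed for 4 of them: Ogg1, the gene the set was built around, and Ung, Apex1 and Parp1, whose transcripts differed most between AML1/ETO and GFP. Capitals mark GGGCGG, the core of the GC box, and CCAAT, on either strand. All 4 windows lie on the plus strand, at chr6:113326726-113326975 for Ogg1, chr5:114130185-114130434 for Ung, chr14:50924699-50924948 for Apex1 and chr1:180568641-180568890 for Parp1.
Ogg1: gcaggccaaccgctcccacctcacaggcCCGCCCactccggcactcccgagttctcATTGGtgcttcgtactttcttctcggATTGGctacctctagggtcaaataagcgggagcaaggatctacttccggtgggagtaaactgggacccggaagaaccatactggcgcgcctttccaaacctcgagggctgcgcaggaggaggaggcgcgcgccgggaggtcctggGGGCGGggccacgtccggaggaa
Ung: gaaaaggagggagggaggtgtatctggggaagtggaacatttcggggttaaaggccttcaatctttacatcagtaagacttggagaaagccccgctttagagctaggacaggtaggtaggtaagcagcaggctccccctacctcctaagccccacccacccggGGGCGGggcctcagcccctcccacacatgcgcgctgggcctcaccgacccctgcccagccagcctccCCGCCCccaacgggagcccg
Apex1: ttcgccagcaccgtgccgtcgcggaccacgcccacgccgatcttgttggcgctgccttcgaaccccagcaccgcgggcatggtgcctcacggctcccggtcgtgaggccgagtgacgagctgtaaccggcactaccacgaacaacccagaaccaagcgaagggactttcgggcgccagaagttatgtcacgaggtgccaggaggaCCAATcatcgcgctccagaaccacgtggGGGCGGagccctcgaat
Parp1: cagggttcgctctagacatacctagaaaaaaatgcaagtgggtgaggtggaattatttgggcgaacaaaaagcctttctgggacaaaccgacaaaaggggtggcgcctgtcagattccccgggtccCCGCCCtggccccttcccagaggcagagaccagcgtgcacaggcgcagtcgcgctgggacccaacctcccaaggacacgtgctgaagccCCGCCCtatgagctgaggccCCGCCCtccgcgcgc
All 4 windows hold GGGCGG, and the nearest copy to the start site begins 23 bases before it in Ogg1, 20 in Ung, 17 in Apex1 and 15 in Parp1. GGGCGG was also in a window of Mutyh, so 5 of the 9 genes had it, against 32.7% of all 32851 promoter windows of this length. A gene counted if any of its windows matched, while the percentages here and below are of windows. The windows with GGGCGG held 61.6% to 65.6% G and C, and those of these genes without it 44.4% to 54.8%. The median over all windows was 52.4%. CCAAT was in windows of Apex1, Mutyh, Ogg1 and Xrcc1, against 33.9% of all windows. The RUNX core motifs TGTGGT and TGCGGT, which the AML1 part of the fusion can bind, were together in 18.6% of all windows. Among these genes, TGTGGT was found only in the Mutyh window at chr4:116814069-116814318, where it overlaps CCAAT by 1 base. The GGGCGG of Mutyh lies in its other window, at chr4:116807484-116807733. TGCGGT was found only in the window of Lig3. The E2F motifs TTTGGCGC and TTTCGCGC, found together in 0.654% of all windows, were in none of the windows of the 9 genes. Both strands were searched. A match is a description of the sequence, and binding was not measured.

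Values are log2 intensities, so a difference of 1 is a doubling, and levels were compared within a probe set, not between genes. A background bound of 2.04 was set from bacterial control probe sets. A gene below it on all arrays could not be told from background, and folds are given only where the bound allows. Arrays of 1 group had correlations across genes of 0.984 to 0.992, and those of 2 groups 0.892 to 0.965. Kit, a gene of the sort, was below the bound on every array, where its highest value was 1.97, while Cd34, another progenitor marker, read 4.79 to 5.54 with GFP, 6.46 to 6.80 with AML1/ETO and 6.38 to 6.90 with W692A. Genes of T and NK cells were below the bound on all arrays. In bulk RNA, fewer cells of a type and less RNA per cell cannot be told apart.

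With AML1/ETO, 6 of the 10 genes were lower than with GFP and none was higher. They were Ung, Apex1, Parp1, Xrcc1, Lig3 and Neil3, and 5 of them were above the bound, all but Neil3. Of all 18193 genes 28.6% passed at the same threshold, a limma adjusted p under 0.05, with 15.8% lower and 12.9% higher. Of the 8820 genes whose mean passed the bound in some group, 29.8% were lower and 22.6% higher. Without adjustment, at p under 0.05, the count of higher genes by limma was also 0, where 2922 of all 18193 genes were higher. The median log2 difference was -0.57 over the 10 genes and -0.02 over all genes. Ogg1, Mutyh, Neil1 and Polb passed the test in no comparison.

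**Figure D1:**
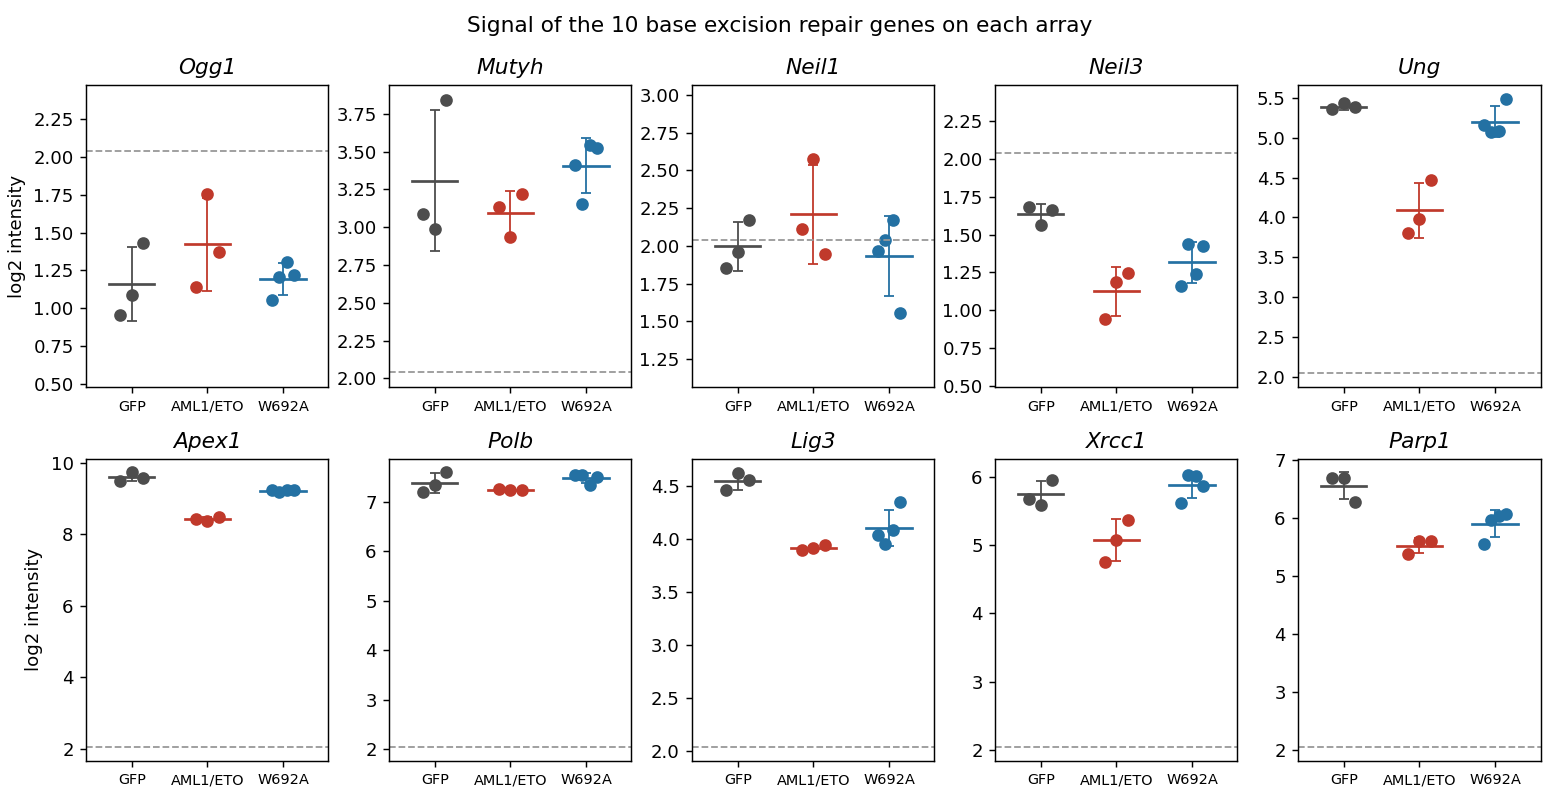
Log2 intensity of the 10 base excision repair genes on each array, one panel per gene, with points for the GFP, AML1/ETO and W692A arrays, a bar for each group mean, whiskers of 1 SD and a dashed line at the background bound of 2.04. Apex1 and Ung lie lower on all 3 AML1/ETO arrays than on any other array, and Ogg1 and Neil3 lie under the bound on all 10.

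Ogg1 was at background in every group. It read 0.958, 1.09 and 1.43 on the GFP arrays, 1.14, 1.75 and 1.37 on the AML1/ETO arrays and 1.05, 1.20, 1.30 and 1.22 on the W692A arrays. The 3 groups overlapped, and all 10 arrays were below the bound. The group means were 1.16 ± 0.244 (SD, n = 3), 1.42 ± 0.309 (SD, n = 3) and 1.20 ± 0.106 (SD, n = 4). The difference between AML1/ETO and GFP was 0.26 ± 0.162 (SE), with a 95% interval of -0.08 to 0.61 and a limma adjusted p of 0.285. For W692A against GFP it was 0.04, with an interval of -0.29 to 0.36 (limma adjusted p = 0.92). The second Ogg1 probe set was likewise below the bound on all arrays, at 0.70 to 1.51. A fall of Ogg1 from this baseline would not be detectable on these arrays.

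The pattern over arrays most like that of Ogg1, among the 8820 genes above the bound, was that of Dnajb12, with a root mean square difference of 0.0959 between values centred per gene. Znrf1, Slc30a3, Lce1h and Rab3a followed at 0.105 to 0.111. Ogg1 itself had an SD of 0.217 over the 10 arrays, all of it below the bound, so this likeness describes values at background.

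Mutyh, which removes adenine paired with 8-oxoguanine and so acts on the same lesion as Ogg1, was above the bound on all arrays. It read 3.09, 2.99 and 3.84 with GFP, 3.14, 2.94 and 3.22 with AML1/ETO, and 3.41, 3.15, 3.54 and 3.53 with W692A. The groups overlapped, and the third GFP array was the highest of all 10. AML1/ETO differed from GFP by -0.21 ± 0.192 (SE), with an interval of -0.62 to 0.20 (limma adjusted p = 0.519), and W692A by 0.10, with an interval of -0.28 to 0.49 (limma adjusted p = 0.797).

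Neil1, a glycosylase for oxidised pyrimidines, lay close to the bound. It read 1.85, 1.96 and 2.17 with GFP, 2.11, 2.58 and 1.94 with AML1/ETO, and 1.96, 2.04, 2.17 and 1.56 with W692A. It was above the bound on 1 GFP array, 2 AML1/ETO arrays and 1 W692A array, and the groups overlapped. The AML1/ETO difference from GFP was 0.21 ± 0.18 (SE; limma adjusted p = 0.473). With the level of the labelled spike-in controls as a covariate it was 0.56 and passed, at a limma adjusted p of 0.0406.

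Neil3, a related glycosylase expressed mainly in dividing cells, was below the bound on all arrays with both of its probe sets. It read 1.68, 1.56 and 1.66 with GFP, 0.941, 1.19 and 1.25 with AML1/ETO, and 1.16, 1.44, 1.24 and 1.43 with W692A. All 3 GFP arrays were above all AML1/ETO arrays and all W692A arrays. The difference between AML1/ETO and GFP was -0.51 ± 0.126 (SE) and passed the test (limma adjusted p = 0.0054), though both groups were at background, and no fold is given. On the second probe set it was -0.11 (limma adjusted p = 0.712). The call was lost with the Gapdh 3′ minus 5′ difference (limma adjusted p = 0.101) or the spike-in level (limma adjusted p = 0.0516) as a covariate. On the first probe set W692A differed from GFP by -0.32, with an interval of -0.57 to -0.07, and did not pass (limma adjusted p = 0.0869).

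Ung, which removes uracil from DNA, had the largest fall when each gene was read from its brightest probe set, though other probe sets of Apex1 fell further. It read 5.36, 5.44 and 5.38 on the GFP arrays, 3.80, 3.98 and 4.48 on the AML1/ETO arrays and 5.17, 5.08, 5.08 and 5.49 on the W692A arrays. The AML1/ETO arrays were all lower than any other array, and the third of them was the highest of its group, while GFP and W692A overlapped. With AML1/ETO, Ung was 2.47-fold lower than with GFP, a log2 difference of -1.30 ± 0.164 (SE; limma adjusted p = 1.92e-05). Between W692A and GFP the difference was -0.19 ± 0.153 (SE), with an interval of -0.52 to 0.14 (limma adjusted p = 0.513). W692A was 2.17-fold higher than AML1/ETO (1.12 ± 0.153, SE; limma adjusted p = 9.18e-05).

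Apex1, the main endonuclease for sites that have lost their base, was the only one of the 10 genes that differed in all 3 comparisons. It read 9.50, 9.73 and 9.57 with GFP, 8.43, 8.37 and 8.49 with AML1/ETO, and 9.24, 9.20, 9.23 and 9.23 with W692A. No groups overlapped, and W692A lay between the other two. AML1/ETO was 2.26-fold lower than GFP, a log2 difference of -1.17 ± 0.11 (SE; limma adjusted p = 1e-06). W692A was 1.30-fold lower than GFP (-0.38 ± 0.103, SE; limma adjusted p = 0.0231) and 1.74-fold higher than AML1/ETO (0.80 ± 0.103, SE; limma adjusted p = 5.32e-05).

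The other probe sets of Apex1 gave the same order of groups. The second brightest had means of 8.37 with GFP, 6.89 with AML1/ETO and 7.82 with W692A. The dimmest, the one of the 3 whose type is not marked as possibly matching other sequences, had means of 5.91, 4.08 and 5.19. Its differences from GFP were -1.83 with AML1/ETO (limma adjusted p = 5.05e-08) and -0.72 with W692A (limma adjusted p = 0.000789). On the brightest probe set the W692A call against GFP was lost without GFP replicate 2 (limma adjusted p = 0.107) and without W692A replicate 4 (limma adjusted p = 0.0517). Over all alternatives, which include the mean of the 3 probe sets, the limma adjusted p ran from 0.000423 to 0.606.

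Polb, the gap-filling polymerase of the short-patch route, passed in no comparison. It read 7.20, 7.33 and 7.59 with GFP, 7.26, 7.23 and 7.24 with AML1/ETO, and 7.54, 7.54, 7.34 and 7.51 with W692A. The GFP arrays spanned those of AML1/ETO. The difference between AML1/ETO and GFP was -0.13 ± 0.124 (SE), and its interval of -0.39 to 0.14 leaves out a fall of the size seen for Apex1. Against GFP, W692A differed by 0.11, with an interval of -0.14 to 0.36 (limma adjusted p = 0.636). Of the 3 other Polb probe sets, 1 was below the bound and none passed in either comparison with GFP.

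Xrcc1, the scaffold that holds Lig3 at the nick, was lower with AML1/ETO. It read 5.68, 5.59 and 5.96 with GFP, 4.76, 5.08 and 5.37 with AML1/ETO, and 5.61, 6.02, 6.00 and 5.86 with W692A. All AML1/ETO arrays were below all others, and GFP and W692A overlapped. AML1/ETO was 1.60-fold lower than GFP, a log2 difference of -0.67 ± 0.165 (SE; limma adjusted p = 0.0054). W692A was 1.75-fold higher than AML1/ETO (0.81 ± 0.154, SE; limma adjusted p = 0.00149) and differed from GFP by 0.13, with an interval of -0.20 to 0.46. The AML1/ETO call was lost with the Gapdh difference (limma adjusted p = 0.13) or the spike-in level (limma adjusted p = 0.102) as a covariate.

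For Lig3, the ligase of the short-patch route, the probe sets disagreed. The brightest read 4.46, 4.62 and 4.56 with GFP, 3.90, 3.91 and 3.94 with AML1/ETO, and 4.04, 3.95, 4.09 and 4.35 with W692A. All GFP arrays were above all others. AML1/ETO was 1.55-fold lower than GFP (-0.63 ± 0.123, SE; limma adjusted p = 0.000975) and W692A 1.36-fold lower (-0.44 ± 0.115, SE; limma adjusted p = 0.0174). The second probe set was almost as bright, with means of 4.04, 4.01 and 4.16, and differed from GFP by -0.03 with AML1/ETO (limma adjusted p = 0.909) and by 0.13 with W692A (limma adjusted p = 0.564). The 3 others were below the bound. With the mean of all 5 probe sets neither difference passed (limma adjusted p = 0.434 and 0.675). The W692A call on the brightest was also lost without GFP replicate 2 (limma adjusted p = 0.0711) and with further quantile normalization (-0.33, limma adjusted p = 0.0699).

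**Figure D2:**
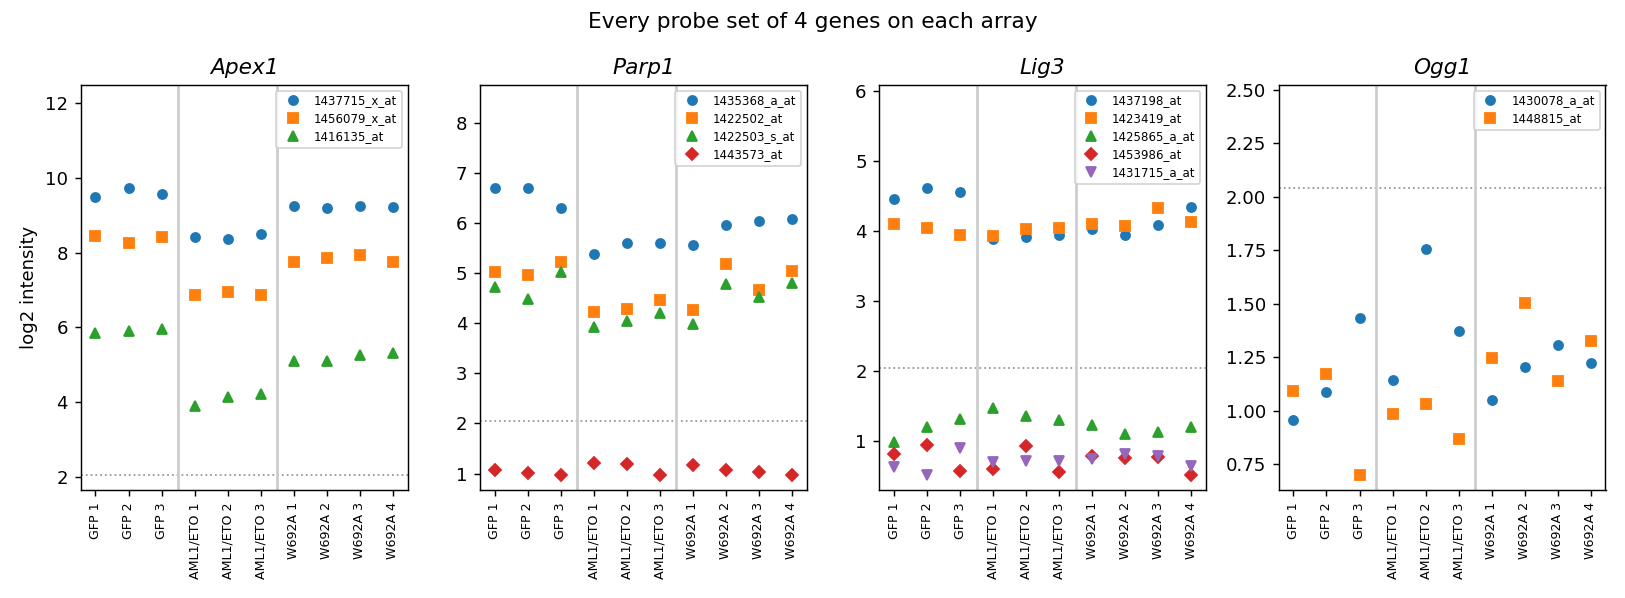
Log2 intensity on each array for every probe set of Apex1, Parp1, Lig3 and Ogg1, with one marker shape per probe set, grey lines between the groups and a dotted line at the background bound of 2.04. The 3 Apex1 probe sets have the same order of groups, only the brightest of the 2 Lig3 probe sets above the bound is lower with AML1/ETO, and both Ogg1 probe sets stay under the bound.

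Parp1, which senses the nick and builds poly(ADP-ribose) chains that attract Xrcc1, was lower with both constructs. It read 6.70, 6.69 and 6.29 with GFP, 5.38, 5.60 and 5.60 with AML1/ETO, and 5.56, 5.96, 6.03 and 6.07 with W692A. All GFP arrays were above all others, and the first W692A array lay among those of AML1/ETO. AML1/ETO was 2.04-fold lower than GFP (-1.03 ± 0.156, SE; limma adjusted p = 0.00011) and W692A 1.57-fold lower (-0.65 ± 0.146, SE; limma adjusted p = 0.00686). The difference of 0.38 between W692A and AML1/ETO did not pass (limma adjusted p = 0.0877), but passed without W692A replicate 1 (limma adjusted p = 0.0183). Of the other Parp1 probe sets, 2 were above the bound. They differed from GFP by -0.75 and -0.69 with AML1/ETO (limma adjusted p = 0.00961 and 0.0176) and by -0.29 and -0.22 with W692A (limma adjusted p = 0.402 and 0.552), so the W692A call rests on the brightest.

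Between W692A and GFP, 3 of the 10 genes were lower, Apex1, Lig3 and Parp1, where 14.5% of all genes passed, 9.07% lower and 5.45% higher, and of the genes above the bound 17.1% were lower and 10.3% higher. None of the 10 was higher by limma, also without adjustment at p under 0.05, where 1975 of all 18193 genes were higher. The count of 3 was 1 without GFP replicate 2. In the comparison of W692A with AML1/ETO, 3 genes were higher, Apex1, Xrcc1 and Ung, where 20.7% of all genes passed, 9.61% higher and 11.1% lower, and of those above the bound 18.9% were higher and 20.2% lower. None of the 10 was lower by limma, with or without adjustment, but Neil1 was with the spike-in level as a covariate (-0.51, limma adjusted p = 0.0363). Without adjustment, 2787 of all 18193 genes were lower there at p under 0.05. These 3 comparisons share their arrays in pairs and are not independent. Side by side, the median log2 differences over the 10 genes were -0.57 for AML1/ETO against GFP, -0.13 for W692A against GFP and 0.27 for W692A against AML1/ETO.

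**Figure D3:**
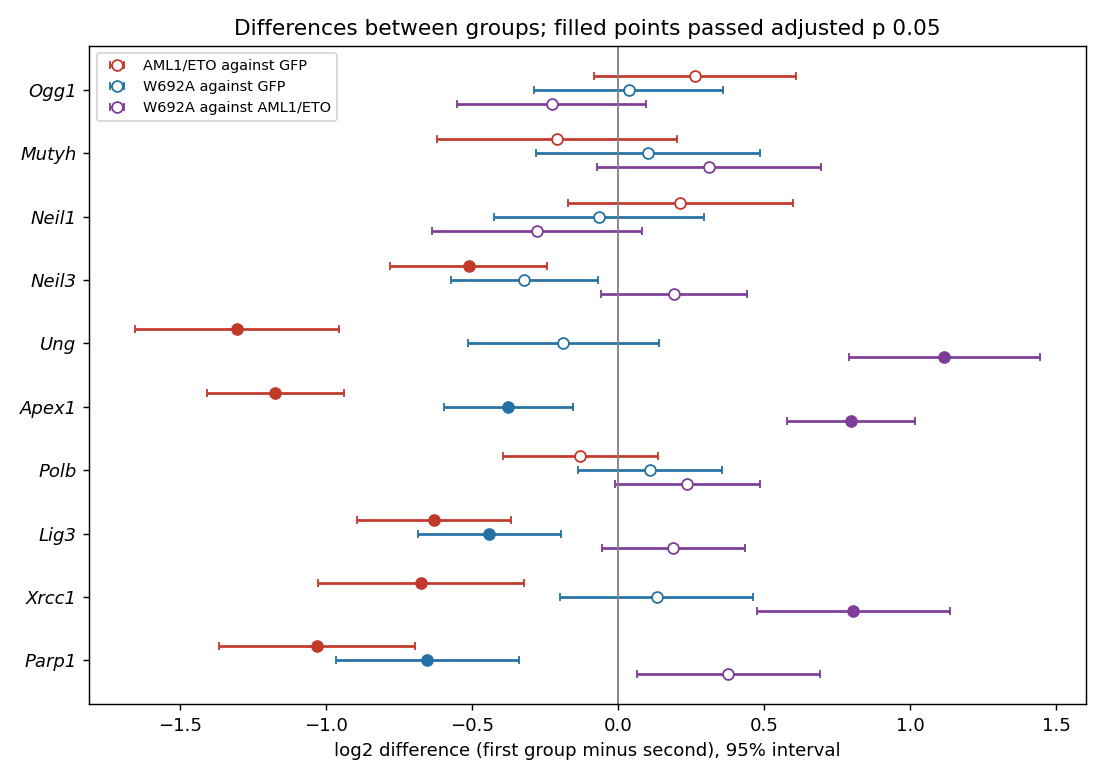
Log2 difference, first group minus second, with its 95% interval from limma, for each of the 10 genes in the 3 comparisons, which share arrays; filled points passed at an adjusted p under 0.05. Ung and Xrcc1 are lower with AML1/ETO and have intervals for W692A against GFP that include 0. Parp1, Lig3 and Apex1 are lower with both constructs than with GFP, and the intervals of Polb, Mutyh, Neil1 and Ogg1 include 0 in all comparisons.

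The rest of the pathway was read from lists of other base excision repair genes, of which 30 of 35 were measured. With AML1/ETO, 19 of the 30 were lower than with GFP, 1 was higher and 10 did not pass, with a median log2 difference of -0.71. Of all genes, 15.8% were lower and 12.9% higher. Among the 24 whose mean passed the bound in some group, 17 were lower, against 29.8% of all such genes. With W692A, 1 was lower than with GFP, 1 was higher and 28 did not pass, with a median of -0.11. The shares of all genes were 9.07% lower and 5.45% higher. Between W692A and AML1/ETO, 18 were higher, 1 was lower and 11 did not pass, with a median of 0.62. Here the shares of all genes were 9.61% higher and 11.1% lower. The counts by role follow and are read beside the same shares, as are those of the proliferation and cell type lists further below.

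Of the 4 other glycosylases measured, Nthl1, Mpg, Mbd4 and Smug1, none passed between AML1/ETO and GFP with limma. Without adjustment, at p under 0.05, 2 were lower, as were 3564 of all 18193 genes. Mpg, which removes alkylated purines, was 1.52-fold higher with W692A than with AML1/ETO (0.60 ± 0.114, SE; limma adjusted p = 0.00135). It read 2.84, 2.81 and 2.78 with GFP, 2.55, 2.57 and 2.38 with AML1/ETO, and 3.24, 3.06, 3.22 and 2.90 with W692A, with no overlap between any groups. Of the 5 other short-patch and end-processing genes, only Tdp1, which frees DNA ends from stalled topoisomerase, was lower with AML1/ETO (-0.64 ± 0.155, SE; limma adjusted p = 0.00483), and its group means were below the bound.

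Of the 16 long-patch genes, 15 were lower with AML1/ETO, all but Pold4, with a median of -1.06. The group means of Pold4 and Rfc3 were below the bound, and the other 14 genes were all lower. The Rfc3 call was lost in 3 of 11 settings. That of Pole4, whose GFP and AML1/ETO arrays overlapped, was lost in 5 of 13. Fen1, which trims the displaced flap, read 10.82, 10.81 and 10.90 with GFP, 9.59, 9.67 and 10.10 with AML1/ETO, and 10.48, 10.56, 10.53 and 10.48 with W692A. AML1/ETO was 2.08-fold lower (-1.06 ± 0.133, SE; limma adjusted p = 1.96e-05). Rfc5, a subunit of the clamp loader, read 8.05, 8.0 and 7.89 with GFP and 6.77, 6.52 and 6.49 with AML1/ETO. It was 2.61-fold lower (-1.38 ± 0.118, SE; limma adjusted p = 4.34e-07), and on the W692A arrays it read 7.69 to 7.86. Lig1, the long-patch ligase, was 1.75-fold lower with AML1/ETO (limma adjusted p = 0.00387), and Pold2, a subunit of polymerase delta, at least 2.03-fold lower (limma adjusted p = 2.08e-05).

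Pcna, the sliding clamp, was the only long-patch gene lower with W692A as well. It read 10.00, 10.28 and 10.06 with GFP, 8.60, 8.71 and 9.34 with AML1/ETO, and 9.43, 9.50, 9.23 and 9.38 with W692A. It was 2.35-fold lower with AML1/ETO (-1.23 ± 0.169, SE; limma adjusted p = 4.46e-05) and 1.66-fold lower with W692A (-0.73 ± 0.158, SE; limma adjusted p = 0.00552). The third AML1/ETO array lay among those of W692A. Between W692A and AML1/ETO, 13 of the 16 long-patch genes were higher with W692A, with a median of 0.77. Pcna was among them (0.50, limma adjusted p = 0.0355), but its call was lost in 3 of 13 settings. It was kept in 5 of the 10 fits that left out 1 array. That of Pole4 was lost in 2 of 13 settings and kept in 7 of these 10 fits.

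Both enzymes of the nucleotide pool, which keep damaged or wrong bases out of DNA, were lower with AML1/ETO. Nudt1, which breaks down oxidised guanine nucleotides before they are built in, read 7.56, 7.34 and 7.62 with GFP, 6.73, 6.71 and 6.12 with AML1/ETO, and 7.69, 7.40, 7.64 and 7.24 with W692A. It was 1.98-fold lower with AML1/ETO than with GFP (-0.99 ± 0.172, SE; limma adjusted p = 0.000373). Dut, which removes dUTP and so limits uracil in DNA, read 6.18, 6.52 and 6.28 with GFP and 5.17, 5.55 and 5.42 with AML1/ETO. It was 1.93-fold lower (-0.95 ± 0.15, SE; limma adjusted p = 0.000166), and W692A, at 6.45 to 6.93, was 2.47-fold higher than AML1/ETO (limma adjusted p = 1.05e-05).

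Parp3 was the one gene of the lists that was higher with AML1/ETO. It encodes a mono-ADP-ribosyltransferase that acts at DNA breaks. It read 3.76, 3.40 and 3.67 with GFP, 5.91, 5.82 and 5.52 with AML1/ETO, and 4.07, 4.26, 4.12 and 4.17 with W692A. No groups overlapped, and W692A lay between the others but nearer to GFP. Parp3 was 4.41-fold higher with AML1/ETO (2.14 ± 0.136, SE; limma adjusted p = 1.76e-08) and 1.46-fold higher with W692A (0.55 ± 0.127, SE; limma adjusted p = 0.00878). The W692A call was lost without GFP replicate 2 (limma adjusted p = 0.054). Parp2, the close relative of Parp1 that shares its role at nicks, moved the other way. It read 7.38, 7.06 and 7.18 with GFP, 6.53, 6.48 and 6.28 with AML1/ETO, and 7.13, 7.33, 7.03 and 7.17 with W692A. It was 1.71-fold lower with AML1/ETO (-0.78 ± 0.129, SE; limma adjusted p = 0.000249), and with W692A it differed from GFP by -0.04, with an interval of -0.30 to 0.21.

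**Figure D4:**
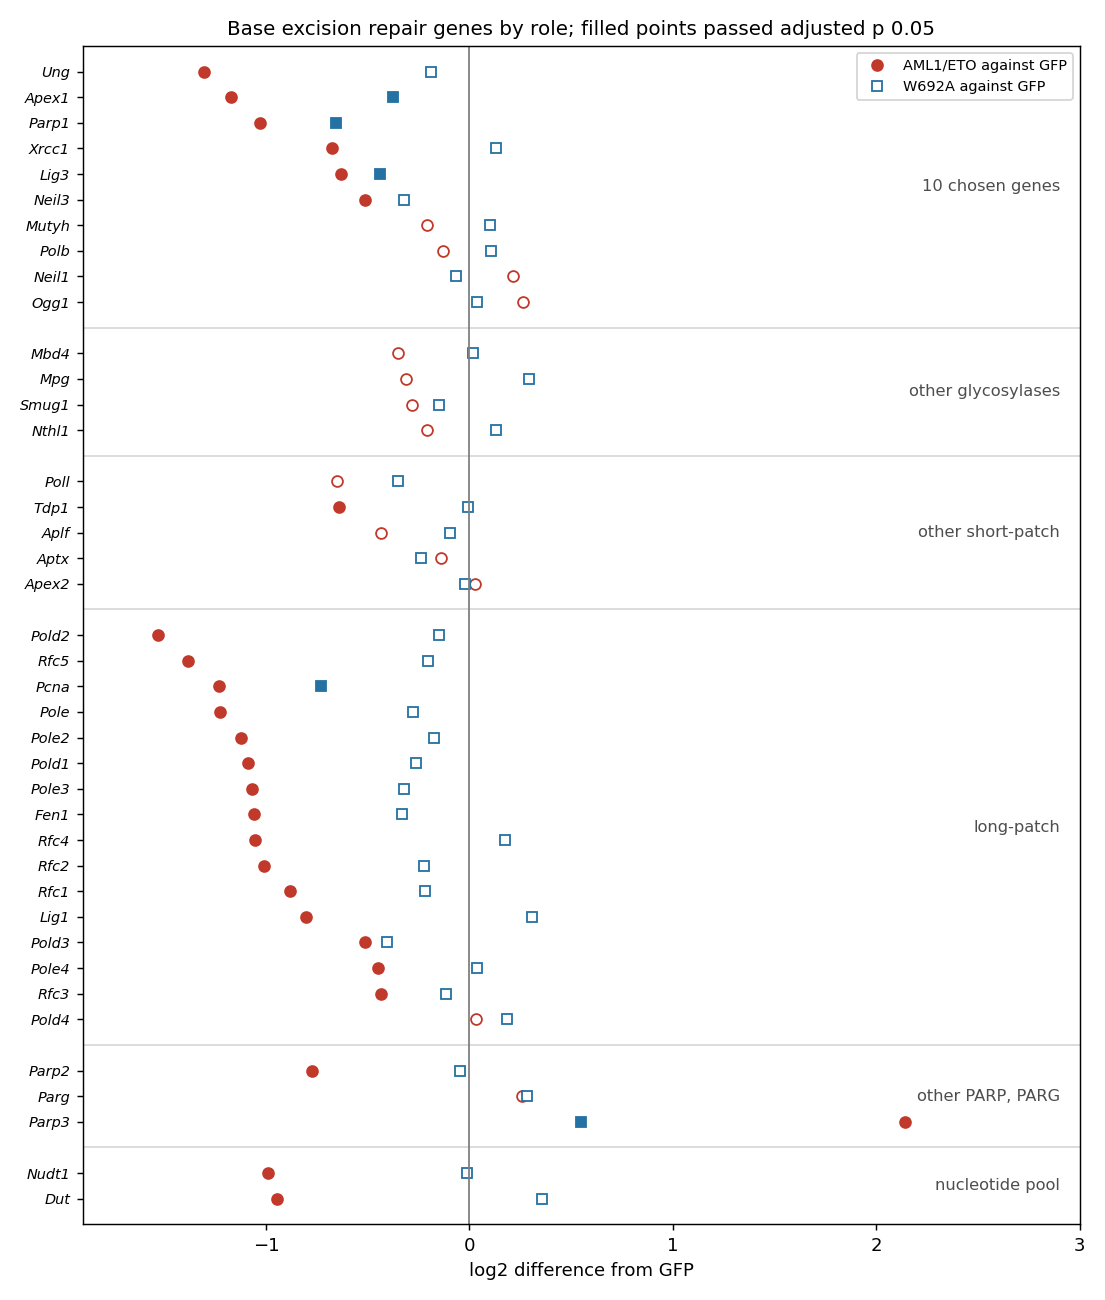
Log2 difference from GFP for each measured base excision repair gene, grouped by role, with circles for AML1/ETO and squares for W692A, filled where the adjusted p was under 0.05. Parp3 is the one gene far to the higher side with AML1/ETO, at 2.14, and with AML1/ETO the long-patch genes other than Pold4 lie on the lower side.

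Genes of the dividing cell moved with these groups. Of 20 proliferation genes measured, 19 were lower with AML1/ETO than with GFP, with a median of -0.93, and 19 were higher with W692A than with AML1/ETO, with a median of 0.82. Between W692A and GFP, 2 were lower and the median was -0.03. Aurkb, a mitotic kinase, was 3.23-fold lower with AML1/ETO (limma adjusted p = 4.57e-06), Ccna2, a cyclin, 2.79-fold (limma adjusted p = 1.56e-07), Tk1, a thymidine kinase, 2.76-fold (limma adjusted p = 6.01e-06) and Bub1, a mitotic checkpoint kinase, 2.56-fold (limma adjusted p = 1.25e-05). The log2 of the summed intensity of the list was 12.67 to 12.77 over the GFP arrays, 11.65 to 11.80 with AML1/ETO and 12.56 to 12.60 with W692A. That of the 10 repair genes was 10.11 to 10.28, 9.26 to 9.36 and 9.90 to 9.95. The part of proliferation in the repair values was not tested.

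Markers of other cell types also moved with the groups. Of 5 erythroid markers, 3 were lower with each construct than with GFP, and Alas2 among these was below the bound on all arrays. The log2 summed intensity of the 5 was 7.04 to 7.61 with GFP, 5.17 to 5.86 with AML1/ETO and 6.21 to 6.86 with W692A. Of 7 monocyte and macrophage markers, 4 were higher with each construct, with sums of 8.07 to 8.47, 9.69 to 10.11 and 9.32 to 9.51. Of 11 neutrophil markers, 2 were higher and 6 lower with each, with sums of 11.04 to 11.37, 10.71 to 11.20 and 10.40 to 10.87. Of 8 mast cell, basophil and eosinophil markers, 3 were higher and 3 lower with AML1/ETO and 2 were higher and 3 lower with W692A, with sums of 9.20 to 9.74, 10.64 to 11.62 and 9.61 to 9.80. Of 10 stem and progenitor markers, 7 were higher and 1 lower with AML1/ETO and 6 and 1 with W692A. Sums were 9.81 to 10.04, 10.24 to 10.41 and 10.02 to 10.33. The 7 include Kit, below the bound on every array, and the other 6 were above it. No B, T or NK cell marker passed in any comparison by limma. At an unadjusted p under 0.05, 1 of 5 B cell markers was lower in each comparison, and none of the 6 T and NK cell markers passed. Of all 18193 genes, 3564 were lower and 2922 higher at this threshold for AML1/ETO against GFP. For W692A against GFP these counts were 2750 and 1975, and for W692A against AML1/ETO 2787 and 2590. The part of these cell types in the repair values was not tested.

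Measures of RNA quality also moved with the groups. The Gapdh difference, the signal of its 3′ probes minus that of its 5′ probes, which rises with shorter labelled RNA, was 4.83 to 4.99 with GFP, 4.01 to 5.04 with AML1/ETO and 3.81 to 4.17 with W692A. No W692A array reached the GFP range. The AML1/ETO arrays read 4.08, 4.01 and 5.04. Replicates 1 and 2 thus lay within the W692A range, and only replicate 3, above all GFP arrays, made the AML1/ETO and GFP ranges overlap. The signal of 18S ribosomal RNA was 7.74 to 8.13 with GFP, 8.18 to 8.65 with AML1/ETO and 8.56 to 8.996 with W692A, so no array of either construct reached the GFP range. The part of the ribosomal RNA signal in the repair values was not tested. With the Gapdh difference as a covariate, AML1/ETO against GFP gave 4 of the 10 genes, Apex1, Lig3, Parp1 and Ung. None of the 10 passed between W692A and GFP by limma, and 1 did at an unadjusted p under 0.05. The differences were then -0.29 for Apex1, -0.36 for Lig3 and -0.57 for Parp1, against -0.38, -0.44 and -0.65 without the covariate. As the Gapdh ranges of W692A and GFP do not overlap, the covariate cannot separate RNA quality from the construct there. Over all 18193 genes, calls against GFP fell with this covariate from 5207 to 3876 for AML1/ETO and from 2642 to 506 for W692A. The W692A differences of Pcna and Parp3 from GFP did not pass with it either (-0.12 and 0.28, limma adjusted p = 0.903 and 0.692).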

How the data were processed

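RNA of 10 samples was measured on 1 Affymetrix array each, from 50 ng of RNA amplified in more than one round. The deposited values are log2 intensities, made by the authors with RMA per the submitters' processing notes. RMA sets all arrays to 1 distribution, which hides differences in total RNA. The base of the logarithm is not stated: the highest value would be 350219 as a natural logarithm, beyond a scanner's range, and 6967 in base 2, which was used.

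Of 45101 probe sets, 34945 had 1 gene, and 932 with several were not used. Probe sets were named by the platform annotation, with symbols updated through GRCm38.p6 for 34741. Groups came from the sample labels. They were compared with limma 3.58.1 in R 4.3.3 (lmFit and eBayes, 1 fit of 3 groups, 7 residual degrees of freedom), with Benjamini-Hochberg adjustment over 18193 genes and a threshold of 0.05. P-values of other probe sets were adjusted over all probe sets. The background bound is the brightest value of the bacterial controls for dap, lys, phe, thr and trpn. Folds against a group with an array below it are lower limits. For arrays, their number limits the precision. In simulated data of AML1/ETO against GFP, 100 of the brighter genes were changed per size. The fit recovered 80.0% of 2-fold and 29.0% of 1.5-fold changes. Far fewer genes were changed there than the 28.6% called in the data, which made the adjusted threshold stricter. The rates therefore do not give the recovery in the real comparison.

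The genes and lists were chosen with earlier results of these data known. All 10 genes were named, with members of the other repair lists that passed and the 4 proliferation genes with the largest differences. The alternatives dropped the dimmest 40% of genes, averaged or separately tested a gene's probe sets, normalized by quantiles or medians, changed the variance prior, fitted only 2 groups, weighted the arrays, took the replicate number as a block, used 2 covariates, asked for a 1.5-fold minimum or left out each array in turn. A fit restricted to genes above the bound was chosen after seeing the data. Some listed genes, Ly6a among them, were not analysed here.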

Additional observations from a re-analysis of the deposited data

Results flagged for a closer look

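Polb read 7.34 on W692A replicate 3, while the other 3 W692A arrays read 7.51 to 7.54, so this array stood apart from its group. The gap was 0.8293 of the group's range. All 10 base excision repair genes were examined in this way in the W692A group, the only one with 4 arrays, and chance gives such a gap in about 1 in 20 groups. Polb passed in no comparison.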

How the results depend on the processing

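The 10 base excision repair genes gave 6 calls between AML1/ETO and GFP, 4 to 6 over 13 other settings and 6 without any 1 array. Between W692A and AML1/ETO the 3 calls were 3 to 4 over the settings and over the arrays left out. The 3 calls between W692A and GFP depended more on the setting. They were 1 with a gene's probe sets averaged and 1 with a 1.5-fold minimum. With the Gapdh difference, whose ranges do not overlap between these 2 groups, as a covariate they were 0 (1 at an unadjusted p under 0.05). Over the arrays left out they were 1 to 3, with 1 without GFP replicate 2. Over all 18193 genes, 2642 calls became 2216 with averaging, 1637 with the fold minimum, 506 with the covariate and 1956 without that array. For the other base excision repair genes, 20 calls between AML1/ETO and GFP were 17 to 22 over the settings and 18 to 21 over the arrays left out, and 19 between W692A and AML1/ETO were 17 to 21 and 17 to 20. Their 2 calls between W692A and GFP were 0 with the Gapdh covariate (2 at an unadjusted p under 0.05) and 1 with the 1.5-fold minimum, and 1 to 3 over the arrays left out. Signs of calls turned on other probe sets: to 0.21 and 0.0313 for Lig3 between AML1/ETO and GFP, to 0.13 and 0.0660 for Lig3 between W692A and GFP, and to 0.11 and 0.04997 for Parp1 in these comparisons. All of these probe sets but that of 0.13 were below the bound. Differences that had not passed turned as well. For Polb, on probe sets above the bound, they became 0.25 between AML1/ETO and GFP, -0.37 between W692A and GFP and -0.34 between W692A and AML1/ETO. For Ogg1, below the bound, they became -0.03 between AML1/ETO and GFP and 0.34 between W692A and AML1/ETO. Same-numbered arrays of different groups deviated from their group means with correlations of -0.12 to 0.44, and 4 of 9 were over 0.1. For arrays of different numbers these were -0.38 to 0.30, with 7 of 24 over 0.1. Replicate 1 arrays correlated at 0.27 (GFP, AML1/ETO), 0.26 (GFP, W692A) and 0.44 (AML1/ETO, W692A). The labels name no shared batch, and the main fit did not pair the samples. Whether replicate numbers share a batch was not tested. With the replicate number as a block, the 10 genes gave 6 calls between AML1/ETO and GFP, 2 between W692A and GFP, where Apex1 did not pass (-0.38, limma adjusted p = 0.0657), and 3 between W692A and AML1/ETO. The other genes gave 20, 3 and 17. The cause of these changes was not tested. Values at or below the bound, those of Ogg1, Neil1 and Neil3, limit what the arrays can show.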
